A study of Mus musculus with 24 samples.

Results

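Collagen chain genes are the genes named Col, a number, a and a number, such as Col1a1. The deposited P21 medial prefrontal cortex (mPFC) tables list 44 genes of this form among 24972, and 43 of them had a mean of at least 1 normalized count over the 12 libraries of each table. The one left out was Col2a1, the cartilage fibril chain, with a mean of 0.617 in males and 0.490 in females. The members nearest above the minimum were Col10a1 (1.38 in males and 1.32 in females) and Col24a1 (1.32 in males and 1.86 in females), so neither can be measured closely, whereas 39 of the 43 were above 0 in every one of the 24 libraries. The 43 members comprised 10 fibrillar chains, 8 basement membrane chains, 6 beaded filament (type VI) chains, 9 FACIT chains, which sit on the surface of fibrils, 4 transmembrane chains and 6 short chain and other collagens.

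The study exposed mice to morphine through the dam and read gene expression in the offspring. Libraries came from male MO, male SAL, female MO and female SAL offspring, 6 each. MO dams received 10 mg/kg morphine and SAL dams saline, once daily under the skin, beginning 1 week before mating and continuing through gestation and lactation. All offspring were wild-type B6D2F1/J hybrids, from C57BL/6J mothers and DBA/2J fathers, taken at P21, and the tissue was dissected mPFC. One offspring of each sex was taken per litter, so male and female libraries share litters, small litters having been combined early after birth, but which libraries are littermates is not given. A library is one animal, and p-values measure the spread between animals. The male and female tables were normalized separately, so MO was compared with SAL within each table and levels were not tested between sexes.

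Collagens are the main structural proteins of the extracellular matrix. Each molecule is a helix of intertwined chains built on a Gly-X-Y repeat, and the class decides the assembly: fibrillar chains form cables in connective tissue, and type IV chains form the sheet beneath endothelium. In the brain, fibrillar collagen lies mostly in the meninges and around larger vessels, type IV collagen surrounds the whole vasculature, and several transmembrane and FACIT collagens are made by neurons. The tissue is a bulk sample, so fewer cells of a type and less RNA per cell cannot be told apart.

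The coding sequences show how the classes differ. In the GENCODE M21 transcripts (build GRCm38), the longest uninterrupted run of Gly-X-Y codon triplets had a median of 338 triplets in fibrillar chains (range 216 to 344), against a median of 41.0 in basement membrane chains (range 30 to 66). Stretches of 27 codons are printed for the 7 chains on which the results turn, with every glycine codon of the repeat in capitals. For the fibrillar chains Col1a1 (a run of 338 triplets), Col1a2 (339) and Col27a1 (217), for the FACIT chain Col12a1 (32) and for the beaded filament chain Col6a2 (87), the stretch opens the longest run and carries a glycine codon at the head of each triplet:
Col1a1: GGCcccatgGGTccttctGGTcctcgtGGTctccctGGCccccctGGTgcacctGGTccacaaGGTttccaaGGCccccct
Col1a2: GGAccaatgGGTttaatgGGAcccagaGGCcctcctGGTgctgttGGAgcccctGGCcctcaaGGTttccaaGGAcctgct
Col27a1: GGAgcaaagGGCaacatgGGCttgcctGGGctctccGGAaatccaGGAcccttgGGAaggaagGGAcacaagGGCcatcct
Col12a1: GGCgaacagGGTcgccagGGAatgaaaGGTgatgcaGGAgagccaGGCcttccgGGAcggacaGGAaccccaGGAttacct
Col6a2: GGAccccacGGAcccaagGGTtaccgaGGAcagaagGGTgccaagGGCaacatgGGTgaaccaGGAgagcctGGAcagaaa

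The basement membrane chains Col4a1 (40 triplets) and Col4a2 (66) are shown instead where their longest run ends, because breaks in the repeat set type IV apart from the fibrillar chains. The spacing of the capitals becomes irregular after 4 glycine codons in each:
Col4a1: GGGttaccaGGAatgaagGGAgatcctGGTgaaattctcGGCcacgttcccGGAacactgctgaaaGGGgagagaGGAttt
Col4a2: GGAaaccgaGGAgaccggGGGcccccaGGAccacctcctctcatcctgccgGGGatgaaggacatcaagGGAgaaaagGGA
Col4a1 and Col4a2 lie head to head on chromosome 8, and in RefSeq (GRCm38.p6) their annotated starts overlap by the 22 bases at chr8:11312805-11312826, shown on the forward strand:
Shared start: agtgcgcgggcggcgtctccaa

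The members lie on 15 chromosomes, and 15 of the 43 sit within 100 kb of another member, in 8 neighbouring pairs. These pairs include Col4a3 with Col4a4 and Col4a5 with Col4a6, also head to head, Col3a1 with Col5a2 (24.6 kb apart) and Col6a1 with Col6a2 (85.2 kb apart). Sequence that reads of 85 bases could not assign to one gene was rare: 4 of the 43 members shared any such stretch of transcript with another gene, at most 2.75% of stretches (Col6a6, shared with Col6a5).

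Levels differed widely between chains. Normalized counts per kb of coding length, averaged over the male SAL and female SAL means, were highest for Col25a1, a transmembrane collagen of neurons, at 348. Next came Col4a1 at 144, Col1a2 at 143 and Col4a2 at 126, the first and last being the partners of the common type IV molecule and Col1a2 a chain of type I collagen. Col4a1 and Col1a2 did not differ beyond their spread, since male SAL libraries averaged 145 ± 27.5 and 155 ± 40.7 and female SAL libraries 143 ± 10.4 and 132 ± 48.9 (SD, n = 6 each). The order depends on the length used, since coding length leaves out untranslated regions and is 1998 bases for Col25a1 against 5007 for Col4a1. Coding length was that of the longest annotated coding sequence of each gene, whichever isoform the tissue expresses. Before division by length, Col25a1 averaged 695 normalized counts in male SAL and 696 in female SAL libraries, against 725 and 715 for Col4a1.

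**Figure D1:**
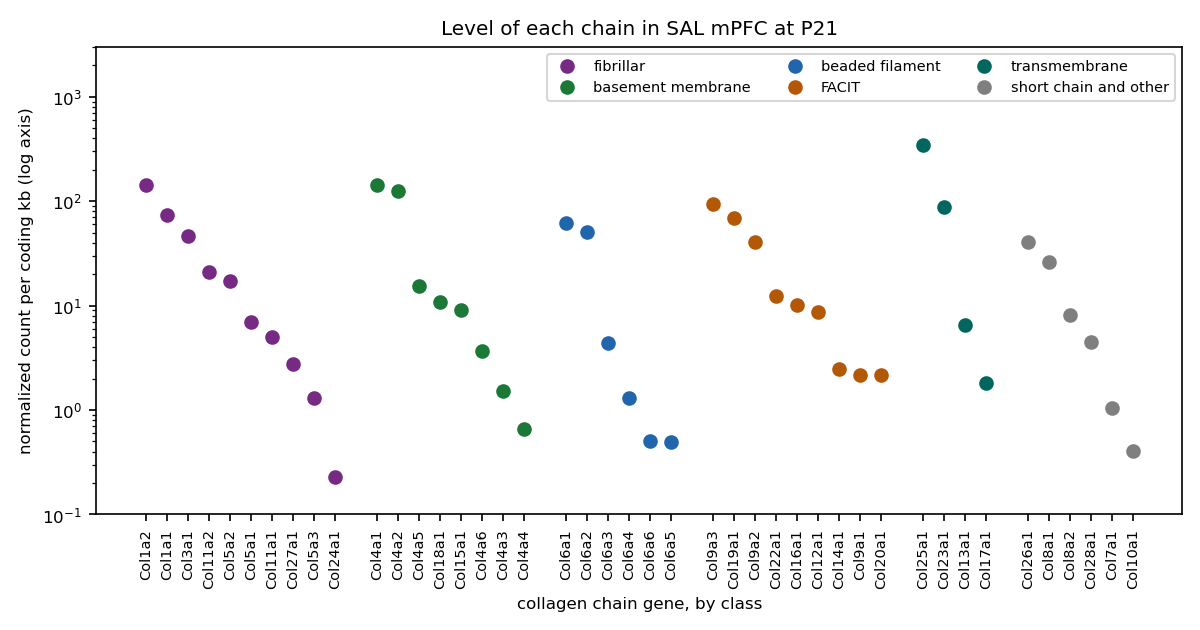
Level of each of the 43 collagen chain genes in SAL offspring, as normalized counts per kb of coding length on a log axis, with genes grouped by class on the x axis and 1 point per gene (mean of the male SAL and female SAL means, tables normalized separately). The points run from 348 for Col25a1 to 0.227 for Col24a1, and each class holds both high and low chains.

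The FACIT chain Col9a3 stood at 94.5, Col19a1, a FACIT chain of interneurons, at 69.1 and Col9a2 at 40.4. Among the fibrillar chains Col1a1 (74.0) and Col3a1 (46.9) followed Col1a2, and the remaining 7 were between 0.227 and 20.9. Among the basement membrane chains Col4a5 (15.4) followed the Col4a1 and Col4a2 pair, and Col4a4 was lowest at 0.663. Among the type VI chains Col6a1 (61.3) and Col6a2 (50.2) were highest, with Col6a3 at 4.41. Col23a1, a transmembrane chain, stood at 87.4 against 6.54 for Col13a1 of the same class, and Col26a1 (40.3), Col8a1 (26.4) and Col8a2 (8.15) led the short chain and other group.

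Library sums were 14730000 to 15970000 normalized counts, which are not read numbers. The markers fitted the labelled tissue: 8 excitatory neuron markers summed to 32125 to 50417 normalized counts in a library, and 8 choroid plexus markers to 44.4 to 111. One library stood apart, female MO PFC1, whose median Spearman correlation with the other libraries of its table was 0.982, against at least 0.992 for each of the other 23. It had the highest meningeal fibroblast, endothelium and mural marker sums of the female MO libraries. Column names of 3 male libraries (2 MO and 1 SAL) and 8 female libraries (4 MO and 4 SAL) carry the suffix combined, whose meaning is not stated.

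In male offspring, the type I collagen chains Col1a1 and Col1a2, the type VI chain Col6a2 and the FACIT chain Col12a1 were below their SAL level in MO with an unadjusted limma p below 0.05, and no chain was higher. None passed an adjusted p of 0.05 (limma with Benjamini-Hochberg adjustment over 16662 genes, smallest adjusted p among members 1.00). The 4 lower chains are 9.30% of the 43 members, against 1.52% of all genes tested, and for higher chains the count was 0, against 1.33% of all genes. In either direction 2.85% of all genes were called. The chains are not independent observations, since Col1a1 and Col1a2 varied together over male libraries (r = 0.867 with group means subtracted). Without SAL PFC12, SAL PFC14 or MO PFC19 the number of lower chains was 2 in each case, and without MO PFC19 the number of higher chains was 2. The study's thresholds (unadjusted p under 0.05 and a log2 fold change beyond 1.2) were used there on DESeq2 results and are applied here to the limma fit. At these thresholds 0 of 43 members and 0.132% of all genes were called. Of the 43 log2 fold changes, 32 were below 0 with a median of -0.12, whereas 50.1% of all genes were below 0 with a median of 0.00. Without MO PFC19 the number below 0 was 26 with a median of -0.04, and without SAL PFC14 it was 28 with a median of -0.07.

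**Figure D2:**
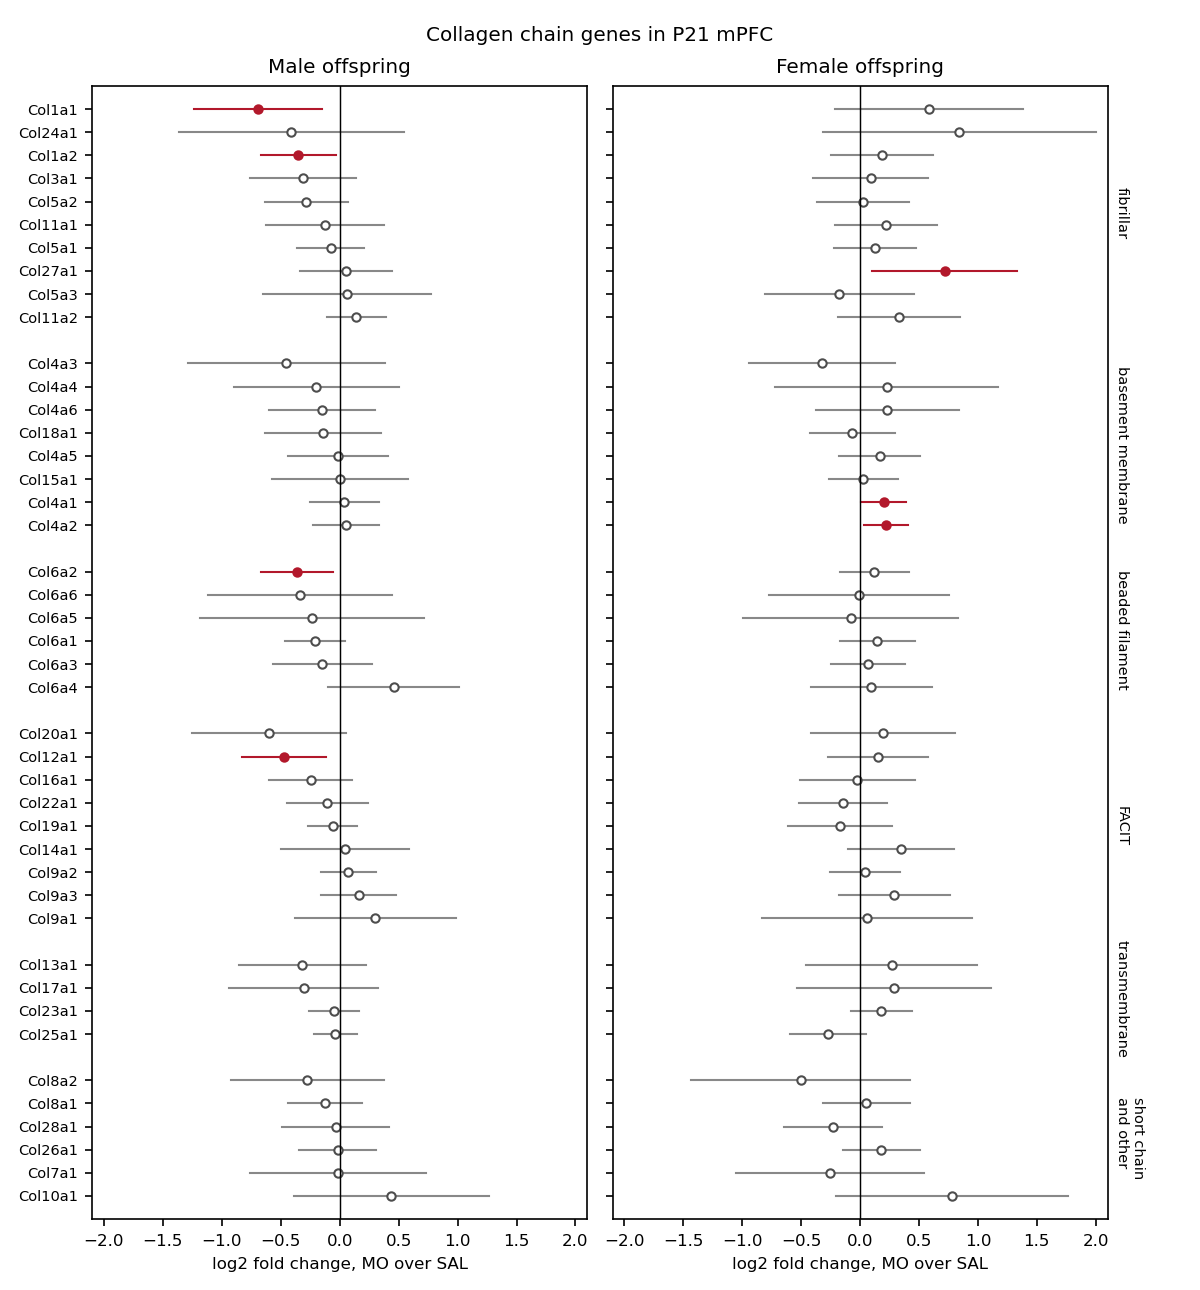
Log2 fold change of MO over SAL (x axis) with its 95% interval from limma for each of the 43 chains (rows, grouped by class), in male offspring on the left and female offspring on the right, 6 MO against 6 SAL libraries in each. Filled red points mark the chains with an unadjusted p under 0.05, 4 below 0 in males and 3 above 0 in females, and none passed the adjusted threshold.

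The fibrillar chains had 7 of 10 log2 fold changes below 0 in males, with a median of -0.20, which was -0.12 without SAL PFC12, -0.11 without SAL PFC14 and -0.07 without MO PFC19. Col1a1 (chr11:94936224-94953042, plus strand), which encodes the major chain of type I collagen, had a lowest, median and highest value of 152, 208 and 340 normalized counts in male MO libraries, against 179, 347 and 690 in male SAL libraries. All 6 MO libraries were below the SAL mean and 3 were below every SAL library, but the groups overlapped. The means were 225 ± 79.4 in MO and 376 ± 173 in SAL (SD, n = 6 each), a ratio of 0.599. This was a log2 fold change of -0.69 (SE 0.26, 95% interval -1.23 to -0.15, limma p = 0.0148, adjusted p = 1.00), and a two-sided exact permutation test over all relabellings gave p = 0.0584. Whichever library was left out, the limma p stayed below 0.05 with log2 fold changes of -0.88 to -0.49, and in the 9 libraries without the suffix combined the log2 fold change was -1.01.

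Col1a2 (chr6:4504814-4541544, plus strand), the partner chain of type I collagen, had values of 346, 503 and 597 normalized counts (lowest, median, highest) in male MO libraries, against 469, 571 and 881 in male SAL libraries. Again 6 of 6 MO libraries were below the SAL mean and 3 below every SAL library. Its log2 fold change was -0.35 (SE 0.15, 95% interval -0.67 to -0.03, limma p = 0.0329, adjusted p = 1.00, exact permutation p = 0.119). This call depended on single libraries: without SAL PFC12, MO PFC13, SAL PFC14, MO PFC15 or MO PFC19 the limma p was 0.0965, 0.0633, 0.0889, 0.0577 and 0.0908 in that order. Without SAL PFC12 the log2 fold change was -0.25.

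Col3a1 (chr1:45311538-45349706, plus strand), the type III chain that is found with type I in vessel walls and meninges, had 77.7, 210 and 233 normalized counts in male MO libraries, against 176, 210 and 288 in male SAL libraries. The medians were alike and 1 MO library, PFC19, stood below the rest at 77.7, with the next at 183. This gave a log2 fold change of -0.31 (95% interval -0.76 to 0.14, exact permutation p = 0.312). The other fibrillar chains ranged from -0.41 (Col24a1, at 0 in 3 MO libraries) to 0.14 (Col11a2), and Col5a2, which joins type I fibrils, was at -0.28 (exact permutation p = 0.199).

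**Figure D3:**
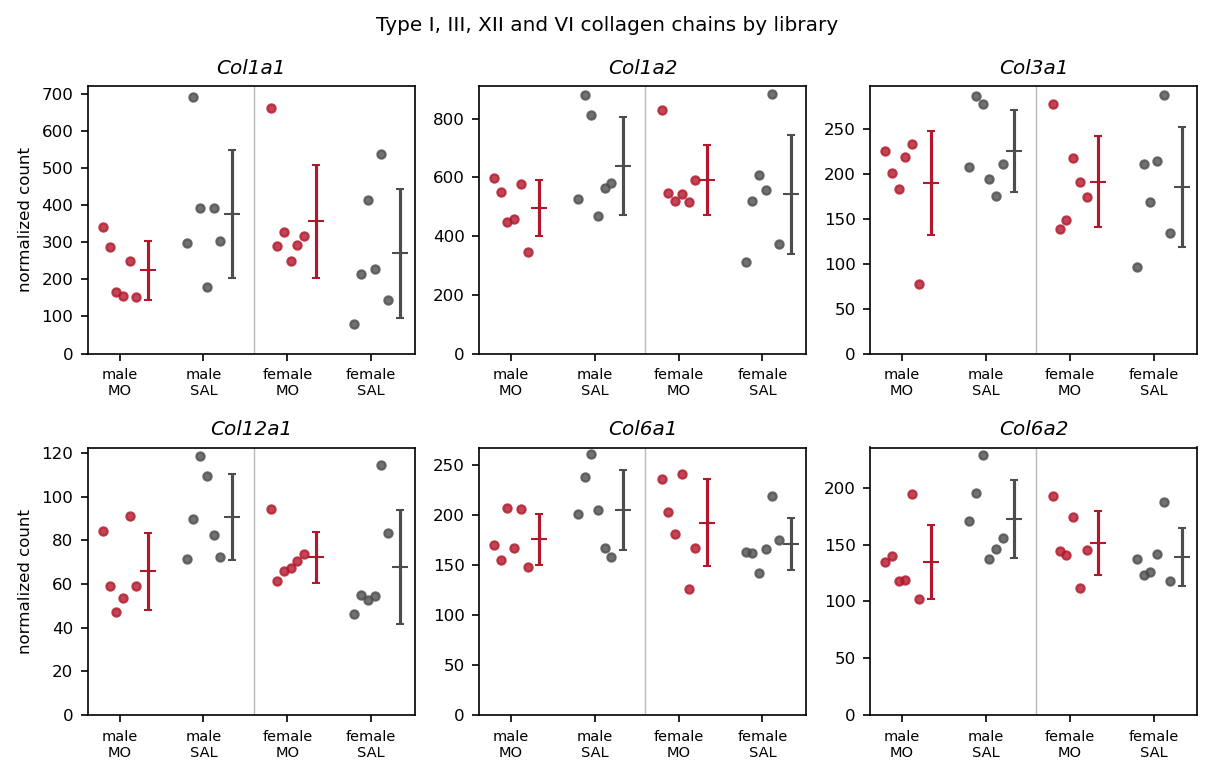
Normalized counts (y axis, from 0) of the type I chains Col1a1 and Col1a2, the type III chain Col3a1, the FACIT chain Col12a1 and the type VI chains Col6a1 and Col6a2 in male MO, male SAL, female MO and female SAL offspring. Points are libraries, 6 per group, and bars beside them are the mean ± SD. Male MO libraries reach 340 for Col1a1, whereas male SAL libraries reach 690, and the single high female MO library of Col1a1, at 661, is PFC1.

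Col12a1 (chr9:79598991-79718831, minus strand), a FACIT chain that binds type I fibrils, had 47.2, 59.1 and 91.1 normalized counts in male MO libraries, against 71.4, 86.1 and 119 in male SAL libraries. In MO, 4 of 6 libraries were below every SAL library, and 2 SAL libraries were above every MO library. Its log2 fold change was -0.47 (SE 0.17, 95% interval -0.83 to -0.12, limma p = 0.0124, adjusted p = 1.00), and the exact permutation p was 0.0390. It kept a limma p under 0.05 in each of the 12 fits that left out 1 library, with log2 fold changes of -0.57 to -0.38. Its FACIT class had 5 of 9 log2 fold changes below 0 with a median of -0.06, and ranged from -0.60 for the low chain Col20a1 (medians of 4.29 normalized counts in MO and 9.02 in SAL, exact permutation p = 0.106) to 0.30 for Col9a1 (5.89 in MO and 5.92 in SAL).

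Col6a2 (chr10:76595762-76623630, minus strand), a chain of the type VI microfibril, had 102, 127 and 195 normalized counts in male MO libraries, against 138, 163 and 229 in male SAL libraries. Again 4 of 6 MO libraries were below every SAL library, although 1 MO library, at 195, lay above the SAL mean. Col6a2 had a log2 fold change of -0.36 (SE 0.14, 95% interval -0.67 to -0.06, limma p = 0.0225, adjusted p = 1.00, exact permutation p = 0.0628). Without SAL PFC12, SAL PFC14 or MO PFC19 the limma p was 0.0523, 0.0661 and 0.0586 in that order, and in the libraries without the suffix combined it was 0.0528. Its partner Col6a1 had 148, 169 and 208 normalized counts in MO, against 158, 204 and 261 in SAL, a log2 fold change of -0.21 (exact permutation p = 0.177). Col6a3 had medians of 40.1 in MO and 43.5 in SAL (log2 fold change -0.15), and Col6a4, a low chain, 13.05 in MO and 7.90 in SAL (a difference of 0.46 on the log2 scale, exact permutation p = 0.123). Of the 6 type VI chains 5 were below 0, with a class median of -0.22.

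No basement membrane chain was called in males, and the abundant type IV pair differed little. Col4a1 had 500, 787 and 952 normalized counts in male MO libraries, against 602, 677 and 976 in male SAL libraries, a log2 fold change of 0.04 (95% interval -0.25 to 0.33, exact permutation p = 0.820). Col4a2 had 479, 742 and 841 normalized counts in MO, against 556, 606 and 874 in SAL, with a log2 fold change of 0.05 (95% interval -0.23 to 0.33). MO medians were above SAL medians for each, although 1 MO library for Col4a1 and 2 for Col4a2 were below every SAL library. Col4a5 had medians of 85.3 normalized counts in MO and 79.4 in SAL, with a log2 fold change of -0.02 (95% interval -0.44 to 0.41), and the low chain Col4a3 at -0.45 (95% interval -1.29 to 0.38). Of the 8 chains 6 were below 0, with a class median of -0.08, which was 0.02 without MO PFC17 and 0.12 without MO PFC19, and -0.17 to -0.01 without any other library.

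The transmembrane and the short chain and other classes held no chain with an unadjusted p under 0.05 in males, nor did any FACIT chain other than Col12a1. The transmembrane chains were all below 0 with a median of -0.18, among them Col25a1 at -0.04 (95% interval -0.22 to 0.15), with 604, 657 and 856 normalized counts in MO against 618, 671 and 881 in SAL. Col23a1 had medians of 149 normalized counts in MO and 146 in SAL (a log2 difference of -0.05 with an exact permutation p of 0.652), and Col13a1 13.6 in MO and 17.2 in SAL (-0.32, exact permutation p = 0.253). Among the FACIT chains, Col9a2 had medians of 89.1 in MO and 78.7 in SAL (log2 fold change 0.07), Col9a3 211 in MO and 186 in SAL (0.16), and Col19a1 241 in MO and 264 in SAL (-0.06). The network-forming Col8a1 had medians of 54.0 in MO and 58.5 in SAL (log2 fold change -0.13) and Col8a2 13.9 in MO and 17.8 in SAL (-0.28), with overlapping groups for all of these chains. Col26a1 was at -0.02 with medians of 60.4 in MO and 53.5 in SAL, and Col10a1 at 0.44 with a median of 1.05 normalized counts in MO against 0.943 in SAL.

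Markers of meningeal fibroblasts also lay below their SAL level in male MO libraries. Of 18 markers, 17 had a log2 fold change below 0 (median -0.24) and 7 (against the 1.52% of all genes) were called lower: Dcn, Slc6a13, Slc22a6, Aldh1a2, Fmod, Ogn and Crabp2, none past the adjusted threshold. Their summed level was 2787 to 4698 normalized counts in male MO libraries, against 3895 to 5743 in male SAL libraries, and no marker was at 0 in every library. Crabp2, a retinoic acid binding protein of the meninges, had a median of 15.5 normalized counts in MO against 29.8 in SAL (log2 difference -0.72, two-sided exact permutation p = 0.0216), and Ogn, the proteoglycan osteoglycin, 72.8 against 120 (-0.66, exact permutation p = 0.0671). Of 15 endothelium markers 0 were called, with sums of 7824 to 8957 in MO and 7787 to 9461 in SAL. Of 11 pericyte and smooth muscle markers 0 were called, with sums of 3313 to 4551 in MO and 3633 to 4887 in SAL. The lowest male MO library on the fibrillar, basement membrane, meningeal, endothelium and mural sums was PFC19 in each case. Choroid plexus (7 tested) and erythroid (5 tested) lists had 1 marker called higher (Ttr and Hba-a1) and 1 called lower (Kcnj13 and Hbb-bs) each in males, while lists for excitatory neurons, interneurons, astrocytes and oligodendrocyte precursors had 0. Excitatory neuron markers were below 0 in 7 of 8 (median -0.04) and astrocyte markers in 4 of 6 (-0.02). Oligodendrocyte precursor markers were above 0 in 5 of 5 (median 0.12) and interneuron markers in 4 of 8 (0.02). The part of the fibroblast markers in the collagen result was not tested.

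Of 13 propeptide proteinase and crosslinking genes, 3 were lower in male MO with an unadjusted limma p below 0.05 (against the 1.52% of all genes) and 0 higher (against 1.33%), and 11 were below 0. Loxl1, a lysyl oxidase that crosslinks collagen and elastin, had 24.5, 29.4 and 33.3 normalized counts in MO against 33.4, 40.5 and 56.5 in SAL, so that the groups did not overlap (log2 fold change -0.50, adjusted p = 1.00, exact permutation p = 0.00216, the smallest that 6 against 6 can give). Lox had a log2 fold change of -0.62 (exact permutation p = 0.0823) and Adamts14, a procollagen N-proteinase, one of -0.55 (exact permutation p = 0.00433). In males 0 of 18 genes for chain hydroxylation, glycosylation and folding, 0 of 9 tested collagen receptors, 0 of 17 basement membrane partners and 0 of 10 tested collagenases, gelatinases and inhibitors had an unadjusted p under 0.05.

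In female offspring, the type IV chains Col4a1 and Col4a2 and the fibrillar chain Col27a1 were above their SAL level in MO with an unadjusted limma p below 0.05, and no chain was lower. None passed an adjusted p of 0.05 (limma over 16717 genes, smallest adjusted p among members 0.918). The 3 chains are 6.98% of members, against 1.81% of all genes tested higher in MO, 1.12% lower and 2.93% in either direction. Here too the chains are not independent, since Col4a1 and Col4a2 varied together over female libraries (r = 0.881 with group means subtracted). The number of higher chains was 1 without MO PFC1 or SAL PFC2, 0 without SAL PFC24 and 7 within the 8 libraries marked combined. At the study's thresholds 0 of 43 members and 0.126% of all genes were called. In females 31 of the 43 log2 fold changes were above 0, with a median of 0.13, whereas 50.5% of all genes were above 0 with a median of 0.00. The number above 0 was 28 without MO PFC1 (median 0.08) or SAL PFC2 (median 0.07), and 25 after quantile normalization.

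Col4a2 (chr8:11312805-11449287, plus strand) had 621, 725 and 912 normalized counts (lowest, median, highest) in female MO libraries, against 553, 644 and 686 in female SAL libraries. In MO, 4 of 6 libraries were above every SAL library, and 2 SAL libraries were below every MO library. The means were 734 ± 97.6 in MO and 628 ± 58.2 in SAL (SD, n = 6 each), a ratio of 1.17. Its log2 fold change was 0.22 (SE 0.09, 95% interval 0.03 to 0.41, limma p = 0.0262, adjusted p = 0.918), with an exact permutation p of 0.0368. Without SAL PFC2, MO PFC3 or SAL PFC24 the limma p was 0.0619, 0.0700 and 0.0645 in that order.

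Col4a1 (chr8:11198423-11312826, minus strand) followed it closely, with 680, 809 and 1046 normalized counts in female MO libraries, against 648, 717 and 772 in female SAL libraries. Its log2 fold change was 0.20 (SE 0.09, 95% interval 0.01 to 0.39, limma p = 0.0439, adjusted p = 0.918, exact permutation p = 0.0519). The call was lost in more fits than that of Col4a2, since the limma p was 0.0541 to 0.117 without any 1 of 7 libraries (MO PFC1, PFC3, PFC5 and PFC8 and SAL PFC2, PFC22 and PFC24). Of the 8 basement membrane chains 6 were above 0, with a median of 0.18, which was 0.10 to 0.12 without MO PFC1, SAL PFC2, MO PFC3, MO PFC5 or SAL PFC24 and 0.08 with array weights. Col4a5 had medians of 83.2 normalized counts in MO and 77.9 in SAL, with a log2 fold change of 0.17 (95% interval -0.18 to 0.51), and Col4a3 at -0.32 with medians of 5.50 normalized counts in MO and 6.71 in SAL.

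**Figure D4:**
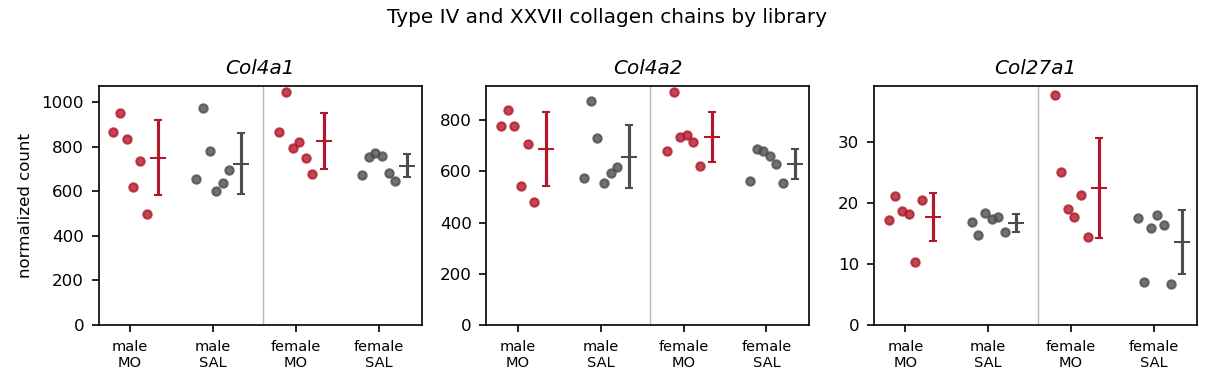
Normalized counts (y axis, from 0) of the type IV chains Col4a1 and Col4a2 and the fibrillar chain Col27a1 in male MO, male SAL, female MO and female SAL offspring, as points for 6 libraries per group with the mean ± SD beside them. Female MO medians lie above female SAL medians for each chain (725 against 644 for Col4a2), with overlap between the groups.

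Col27a1 (chr4:63214004-63334991, plus strand), a fibrillar chain known from cartilage, was a low gene with 14.4, 20.2 and 37.7 normalized counts in female MO libraries, against 6.78, 16.2 and 18 in female SAL libraries. All 6 MO libraries were above the SAL mean and 4 were above every SAL library. This gave a log2 fold change of 0.72 (SE 0.29, 95% interval 0.11 to 1.33, limma p = 0.0246, adjusted p = 0.918, exact permutation p = 0.0433). Without MO PFC1, SAL PFC4 or SAL PFC24 the limma p was 0.0599, 0.0641 and 0.0638 in that order, the log2 fold changes being 0.56, 0.57 and 0.56. In males the same chain had a log2 fold change of 0.05 (95% interval -0.33 to 0.44).

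In females 9 of the 10 fibrillar chains were above 0, with a median of 0.21 (0.12 without MO PFC1), and Col27a1 was the one called. Col1a1 had 250, 304 and 661 normalized counts in female MO libraries, against 79.5, 221 and 538 in female SAL libraries. Above the SAL mean were 5 of 6 MO libraries, and 4 SAL libraries were below every MO library, and the spread was wide (log2 fold change 0.59, 95% interval -0.21 to 1.38, exact permutation p = 0.232). Col1a2 was at 0.19 (95% interval -0.24 to 0.62), with 517, 545 and 830 normalized counts in MO against 311, 538 and 882 in SAL, and Col3a1 at 0.09. Col24a1 had the highest log2 fold change, 0.84, but a median of 1.66 normalized counts in MO against 0.524 in SAL, with 1 MO library and 3 SAL libraries at 0.

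The classes other than fibrillar and basement membrane had 0 chains with an unadjusted p under 0.05 in females. Col12a1, Col6a1 and Col6a2 had log2 fold changes of 0.15, 0.15 and 0.12, with medians of 192 normalized counts in MO and 165 in SAL for Col6a1. Col6a3 was at 0.07 (medians of 45.3 in MO and 42.9 in SAL) and Col6a4 at 0.10 (9.19 in MO and 9.10 in SAL). Col25a1 had 411, 597 and 750 normalized counts in MO against 452, 765 and 779 in SAL, with 4 SAL libraries above every MO library (log2 difference -0.27, two-sided exact permutation p = 0.154). Col23a1 was at 0.18 with 4 of 6 MO libraries above every SAL library (exact permutation p = 0.175), and its medians were 151 normalized counts in MO and 124 in SAL. Col9a3 was at 0.29 (exact permutation p = 0.299), with medians of 216 in MO and 217 in SAL and 1 MO library at 410. Col19a1 was at -0.17 (medians of 199.6 in MO and 201.3 in SAL), Col9a2 at 0.04 (86.5 in MO and 82.7 in SAL) and Col26a1 at 0.18 (52.1 in MO and 48.3 in SAL). Col13a1 was at 0.27 (medians of 16.9 in MO and 11.5 in SAL), Col8a1 at 0.05 (60.6 in MO and 56.0 in SAL) and Col20a1 at 0.19 (10.1 in MO and 8.11 in SAL), with overlapping groups. Col8a2 was at -0.50 (medians of 9.52 in MO and 17.4 in SAL), where 1 MO library was above and 1 below every SAL library, and Col10a1 at 0.78 from medians of 1.46 and 0.464 normalized counts in MO and SAL.

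Vascular markers also lay above their SAL level in female MO libraries. Of 15 endothelium markers 14 were above 0 (median 0.17) and 3 were called higher (against the 1.81% of all genes). These were Pecam1, an adhesion molecule between endothelial cells (log2 fold change 0.33), and the VEGF receptors Flt1 (0.21) and Kdr (0.19). The exact permutation p was 0.0260 for Pecam1, 0.0519 for Flt1 and 0.0563 for Kdr. The 15 markers summed to 8628 to 12549 normalized counts in female MO libraries, against 7822 to 9192 in female SAL libraries. The highest female MO value other than PFC1 was 10568. The median sums lay close together, at 8998 in female MO and 8820 in female SAL libraries. Marker counts and medians without PFC1 were not computed. All 11 pericyte and smooth muscle markers were above 0 (median 0.16), with Rgs5 called (0.25, exact permutation p = 0.0563). They summed to 4262 to 6299 in MO, against 3815 to 4545 in SAL. The median sums were 4726 in MO and 4119 in SAL, and the highest MO sum other than PFC1 was 4798. No marker of these lists was at 0 in every library. Of the other lists, each with 0 called, markers were above 0 in 6 of 6 for astrocytes (median 0.22), 5 of 5 for oligodendrocyte precursors (0.20), 5 of 5 for erythroid cells (0.78) and 3 of 7 for choroid plexus (-0.07). Astrocyte markers had median sums of 73597 in MO and 66361 in SAL, with highest sums of 110584 and 71937. For oligodendrocyte precursors the median sum was lower in MO, at 5190 against 5322 in SAL, with highest sums of 8976 and 5928. Neuronal markers were below 0 in 5 of 8 for excitatory neurons (median -0.12) and 6 of 8 for interneurons (-0.09). Meningeal fibroblast markers were above 0 in 15 of 18 (median 0.10), had 0 called and summed to 3480 to 7213 in MO against 3312 to 5965 in SAL. The part of these cells in the type IV result was not tested.

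Among the partner genes, Itga1, the collagen-binding integrin subunit, was the one call in females (1.81% of all genes were called higher), with 76.6, 87.2 and 102 normalized counts in MO against 61.0, 74.5 and 90.9 in SAL (log2 difference 0.27, two-sided exact permutation p = 0.0455). It was 1 of 10 tested collagen receptors, Gp6 being at 0 in every female library. In females 0 of 13 propeptide proteinase and crosslinking genes, 0 of 18 chain modifying and folding genes, 0 of 17 basement membrane partners and 0 of 10 tested collagenases, gelatinases and inhibitors were called.

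The difference in MO effect between the sexes was largest for Col1a1, and no member passed the adjusted threshold. Its female minus male difference in log2 fold change was 1.28 (SE 0.50, 95% interval 0.26 to 2.30, limma interaction p = 0.0163, adjusted p = 1.00, permutation within sex p = 0.0296). The unadjusted p was below 0.05 in each of 24 fits that left out 1 library (differences of 0.98 to 1.53). Col12a1 had a difference of 0.62 (95% interval 0.06 to 1.19, permutation p = 0.0464) and Col6a2 one of 0.48 (95% interval 0.05 to 0.92, permutation p = 0.0466), and each had an unadjusted limma p below 0.05 in 15 of the 24 fits. Without female MO PFC1, female SAL PFC4, male MO PFC13, male SAL PFC14 or male MO PFC15 neither did. Nor did Col12a1 without female SAL PFC2, female SAL PFC6, female SAL PFC7 or male SAL PFC16, and Col6a2 without female MO PFC8, female SAL PFC24, male SAL PFC12 or male MO PFC19. These 3 are 6.98% of members, against 1.29% of 16502 genes with a difference above 0 and 2.01% in either direction. The count was 1 without female MO PFC1, female SAL PFC4, male MO PFC13 or male SAL PFC14. No member had one below 0, against 0.715% of all genes. Over all members 33 of 43 differences were above 0 with a median of 0.20, but the share over all genes was not computed. By sign of the log2 fold change, 21 chains were below 0 in males and above 0 in females and 1 was the reverse. A further 11 were below 0 in both sexes and 10 above 0 in both. With 32 below 0 in males and 31 above 0 in females, many opposite signs follow from the counts within each sex. For the chains called in females the differences were not past the threshold, at 0.67 for Col27a1 (95% interval -0.04 to 1.37, permutation p = 0.0990), 0.16 for Col4a1 (permutation p = 0.439) and 0.17 for Col4a2 (permutation p = 0.404).

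Correlations between chains were computed on log2 values after subtracting each group's mean, so that the difference between MO and SAL did not enter, for 10 pairs and 4 pairs of scores per sex, 28 relations in all with permutation p-values adjusted over the 28. Of the 10 pairs, 8 join chains named for one collagen type, and 2 (Col1a1 with Col3a1, and Col3a1 with Col5a2) join chains of different types. For Pearson's r the adjusted p was under 0.05 in 4 of the 8 and 1 of the 2 in males, and in 3 of the 8 and 2 of the 2 in females. Libraries also share depth and dissection, so a correlation does not set a pair apart from other genes.

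Col4a1 and Col4a2 had r = 0.987 and rho = 0.979 in males (12 libraries, permutation p = 2e-05 for each, adjusted p = 0.00056), and r was 0.975 without the 2 libraries farthest from the median of Col4a1 and 0.987 within the 9 libraries lacking the suffix combined. In females r was 0.881 and rho 0.846 (permutation p = 0.00172 and 0.00215, adjusted p = 0.00602 and 0.0100), and r was 0.668 without the 2 farthest libraries and 0.850 within the 8 combined libraries. This is the pair that shares its start region on chromosome 8. Of the other head to head pairs, Col4a5 and Col4a6 had r = 0.860 and rho = 0.846 in males (permutation p = 0.00071 and 0.00202, adjusted p = 0.00497 and 0.0100, r = 0.776 without the 2 farthest and 0.887 within the 9) but r = 0.394 and rho = 0.406 in females (permutation p = 0.191 and 0.206, adjusted p = 0.243 and 0.251, 0.0644 without the 2 farthest and 0.474 within the 8). Col4a3 and Col4a4, both low, had r = 0.689 and rho = 0.713 in males (permutation p = 0.0305 and 0.0200, adjusted p = 0.0534 and 0.0349, r = 0.706 without the 2 farthest and 0.749 within the 9), so that Pearson's r missed the threshold. In females the pair had r = 0.291 and rho = 0.224 (permutation p = 0.547 and 0.538, adjusted p = 0.613 and 0.603), and r was 0.505 without the 2 farthest and -0.537 within the 8.

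Col1a1 and Col1a2, on chromosomes 11 and 6, had r = 0.867 and rho = 0.839 in males (permutation p = 0.00038 and 0.00014, adjusted p = 0.00355 and 0.00196), with r = 0.782 without the 2 farthest libraries and 0.846 within the 9 not combined. In females r was 0.959 and rho 0.888 (permutation p = 0.00015 and 0.00171, adjusted p = 0.00210 and 0.0100), with r = 0.906 and 0.955 under the same limits. The neighbours Col3a1 and Col5a2 had r = 0.819 in males (rho 0.734, permutation p = 0.00964 and 0.0118, adjusted p = 0.0208 and 0.0300) and r = 0.871 in females (rho 0.846, permutation p = 0.00107 and 0.00255, adjusted p = 0.00509 and 0.0102). Without the 2 farthest libraries r was 0.760 in males and 0.856 in females, and within the larger suffix class 0.838 and 0.935.

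Col8a1 and Col8a2, which build type VIII networks, had correlations below 0 in each sex that were not past the threshold (r = -0.439, rho = -0.427, permutation p = 0.211 and 0.189, adjusted p = 0.257 and 0.241 in males, where r was -0.174 without the 2 farthest libraries and -0.511 within the 9, and r = -0.0837, rho = -0.0629, permutation p = 0.783 and 0.857, adjusted p = 0.783 and 0.889 in females, where it was 0.161 and 0.0365).

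Chain scores were also set against marker scores over the libraries. The type I score (mean log2 value of Col1a1 and Col1a2) against the meningeal fibroblast score had r = 0.679 and rho = 0.706 in males (permutation p = 0.0177 and 0.0174, adjusted p = 0.0354 and 0.0325), with r = 0.780 without the 2 farthest libraries and 0.654 within the 9 not combined. In females r was 0.834 and rho 0.608 (permutation p = 0.00226 and 0.0510, adjusted p = 0.00669 and 0.0793), with r = 0.603 and 0.793 under the same limits. The type IV score (Col4a1 and Col4a2) against the endothelium score had r = 0.832 and rho = 0.825 in males (permutation p = 0.00239 and 0.00473, adjusted p = 0.00669 and 0.0166, r = 0.651 without the 2 farthest and 0.762 within the 9). In females r was 0.531 and rho 0.678 (permutation p = 0.162 and 0.0171, adjusted p = 0.217 and 0.0325, r = 0.354 and 0.174), so that the linear relation was not past the threshold there.

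The other score relations were about as large in males. The type IV score against the meningeal fibroblast score had r = 0.767 and rho = 0.776 in males (permutation p = 0.00702 and 0.00551, adjusted p = 0.0179 and 0.0171, r = 0.611 without the 2 farthest and 0.757 within the 9). The type I and type IV scores had r = 0.829 and rho = 0.860 (permutation p = 0.00109 and 0.00144, adjusted p = 0.00509 and 0.0100, r = 0.780 without the 2 farthest and 0.783 within the 9). In males the type IV score thus moved with the meningeal as well as the endothelium score. In females the type IV score against the meningeal score had r = -0.0910 and rho = 0.0350 (permutation p = 0.772 and 0.925, adjusted p = 0.783 and 0.925, r = 0.197 without the 2 farthest and -0.0358 within the 8). The type I and type IV scores had r = 0.227 and rho = 0.357 in females (permutation p = 0.422 and 0.275, adjusted p = 0.492 and 0.321, r = 0.209 without the 2 farthest and 0.275 within the 8).

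**Figure D5:**
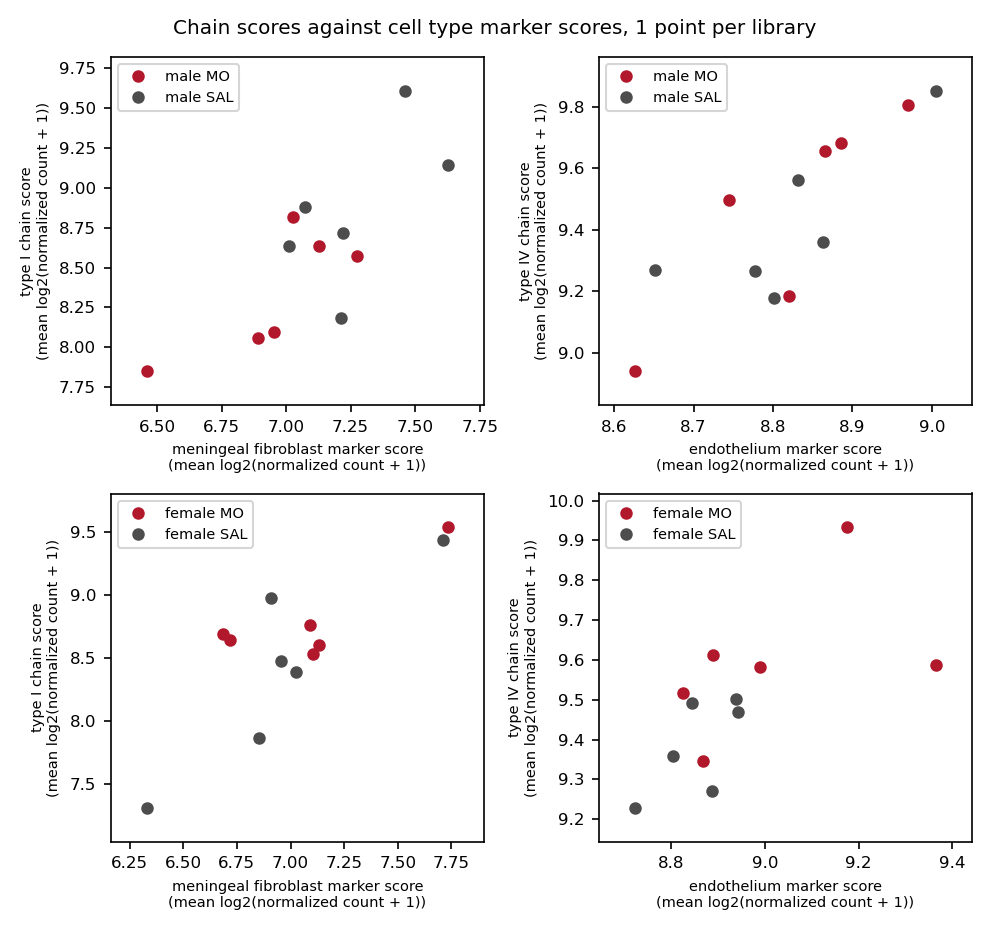
Type I chain score against meningeal fibroblast marker score (left) and type IV chain score against endothelium marker score (right), as mean log2(normalized count + 1), 1 point per library, males above and females below, MO in red and SAL in grey. The group means are not subtracted in the plot, whereas the r values (0.679 and 0.832 in males, 0.834 and 0.531 in females) are for values with group means subtracted.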

How the data were processed

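Directional poly A RNA-seq was made from P21 mPFC. Per the methods of the authors, STAR alignment to mm10 was followed by Salmon quantification, and groups were compared with DESeq2. The deposited tables, one per sex, hold a signal, the authors' normalized counts, which are not whole numbers. Whole reads could not be recovered, so the number of reads behind a value is unknown and no count test was run.

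Values were analysed as log2(value + 1), on which fold changes of low genes are understated. Genes summing to at least 10 over the 12 libraries of a table were tested with limma 3.58.1 in R 4.3.3 (empirical Bayes with trend, Benjamini-Hochberg adjustment over all genes tested). The difference between sexes was an interaction term over 24 libraries, treated as independent although litters are shared. Single chains were also tested by two-sided exact permutation over all relabellings, which cannot give a p below 0.00216, and relations by 100000 permutations within group. The difference between sexes was set against 100000 permutations of MO and SAL labels within sex. The null of these permutations is no MO effect in either sex, so their p-values do not test equal effects alone. The fit was tested on simulated data with noise drawn independently for each gene, whereas some of these chains vary together. Tools were Python 3.11.15, SciPy 1.17.1 and matplotlib 3.10.9.

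Members and lists were chosen with earlier results of these data known. Values per group are given for chains with an unadjusted p under 0.05 in either table, the 3 highest per coding length in each class, the 3 largest log2 fold changes in each direction in each table, and Col1a1, Col1a2, Col3a1, Col4a1 and Col4a2. Up to 3 partner genes per list are named, while the called genes of the meningeal list are all named and were picked out after their values were seen. Coding lengths and stretches come from the longest coding sequence of each gene in GENCODE M21 transcripts, and the start region from RefSeq. Alternatives were other pseudocounts and filters, quantile normalization, scaling to Gapdh and Ppia, array weights, a term for libraries marked combined and leaving out each library. Fits within 1 suffix class were chosen after seeing the data.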

Additional observations from a re-analysis of the deposited data

Results flagged for a closer look

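Of 104 groups of 6 libraries examined for 26 chains, 10 (9.62%) held a library far from the nearest other by Dixon's criterion on log2 values. For independent groups chance gives about 1 in 20. Some of the chains were picked by their values in these libraries and some vary together, so that rate does not test the 9.62%. Female MO PFC1 was the highest of its group for Col1a1 (661.3 normalized counts, the next at 326.1) and Col1a2 (830.3, the next at 591.6). Male MO PFC19 was the lowest for Col3a1 (77.7, the next at 183), and male MO PFC17 for Col27a1 (10.4, the next at 17.3). Col25a1 had a high library in male MO (PFC10, 856) and in male SAL (PFC16, 881) and a low one in female SAL (PFC2, 452). Female SAL PFC2 was also lowest for Col8a2 (5.16), female MO PFC23 for Col8a1 (37.2) and male SAL PFC20 for Col20a1 (4.33).

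The MO effect differed between sexes at an unadjusted p under 0.05 for Col1a1 (female minus male log2 fold change 1.28), Col12a1 (0.62) and Col6a2 (0.48), with an adjusted p of 1.00 for each in the limma interaction.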

How the results depend on the processing

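No result reversed its direction among those past an unadjusted p of 0.05, and 0 members passed an adjusted p of 0.05 under every alternative run. In males the number of lower chains was 4, and 2 to 6 when 1 library was left out (2 without SAL PFC12, SAL PFC14 or MO PFC19). The number of higher chains was 0, 1 with array weights (Col6a4) and 0 to 2 when 1 library was left out (2 without MO PFC19, Col6a4 and Col9a3). In females the number of higher chains was 3, 0 to 4 when 1 library was left out (1 without MO PFC1 or SAL PFC2, 0 without SAL PFC24), and 7 in the 8 libraries marked combined (Col11a1, Col12a1, Col23a1, Col4a1, Col4a2, Col6a1 and Col6a2). The number of lower chains in females was 0, 1 with array weights (Col8a2) and 0 to 1 when 1 library was left out. Array weights also ended the calls of Col27a1 and Col4a1 in females, with log2 fold changes of 0.49 and 0.16. Differences between sexes above 0 numbered 3, 5 with a term for libraries marked combined and 1 to 6 when 1 library was left out (1 without female MO PFC1, female SAL PFC4, male MO PFC13 or male SAL PFC14), and those below 0 numbered 0, and 0 to 1. The median log2 fold change of the fibrillar chains was -0.30 to -0.07 in males and 0.12 to 0.29 in females when 1 library was left out, and -0.11 in males with a pseudocount of 5. That of the basement membrane chains was -0.17 to 0.12 in males and 0.10 to 0.23 in females. The number of chain pairs with an adjusted p under 0.05 was 5 in each sex and, within the larger suffix class, 3 in males and 2 in females. The causes were not tested. Scaling to Gapdh and Ppia put the median of all genes at -0.03 in males and 0.09 in females. The member median was then -0.15 in males, with 32 of 43 below 0. In females it was 0.22 with 34 of 43 above 0. Without this scaling the female medians were 0.13 for members and 0.00 for all genes, so the scaling raised both. No paired analysis was possible because which libraries are littermates is not given. Read depth behind single values is unknown, so the precision of low chains such as Col24a1 and Col10a1 could not be computed.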
